A study of Mus musculus with 4 samples.

Results

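Dividing goblet progenitors are cells of the intestinal crypt that carry transcripts of both cell division and mucus secretion. They were picked here from single-cell RNA sequencing of mouse small-intestinal crypts by their own expression. Each cell was scored on 7 sets of 3 genes as the mean z-score of log counts, and a member had a mean of at least 0.5 both on the division set Mki67, Top2a and Cenpf and on the goblet set Muc2, Tff3 and Clca1. A member also scored under 0.5 on the sets for stem cells (Lgr5, Olfm4, Ascl2), enterocytes (Fabp1, Sis, Apoa1), Paneth cells (Lyz1, Defa24, Ang4), enteroendocrine cells (Chga, Chgb, Neurod1) and tuft cells (Dclk1, Trpm5, Avil). The rule kept 749 of 29731 cells that passed quality filters. Since these 21 genes chose the cells, their levels are given as description and not as findings.

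The goblet lineage arises from crypt progenitors that escape Notch signalling and switch on the transcription factor Atoh1, after which Spdef drives the secretory programme. Goblet cells make the gel-forming mucin Muc2, the trefoil peptide Tff3 and proteins that bind or loosen mucus, which together cover the epithelium. Committed secretory cells soon leave the cell cycle.

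The series concerns crypt cells of mice under sleep deprivation. Its 4 libraries are labelled 0D-1 and 0D-2 (the group 0D) and 2D-1 and 2D-2 (the group 2D). The letter D is not spelled out, and 0D is read here as before deprivation and 2D as under it. All 4 share the same tissue, EDTA release of crypts, straining and 10x Genomics 3′ chemistry of version 2, while the sources used here give no strain, age or number of animals. Separate animals are not stated for the libraries either, and a p-value here therefore reflects library-to-library spread that may be purely technical.

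Members numbered 230 in 0D-1, 182 in 0D-2, 170 in 2D-1 and 167 in 2D-2, with 3880714, 3329347, 2381390 and 2385714 UMIs (unique molecular identifiers, counted transcript molecules) in all. Members of 2D-1 were shallower and richer in mitochondrial transcripts than the rest. Their median depth was 15205, 16117, 10733.5 and 13924 UMIs per cell, and their median mitochondrial share was 4.72%, 4.64%, 9.15% and 4.37%. The library 2D-1 also stood apart in the members' summed expression. The root mean square log2 difference over 2369 well-expressed genes was 0.165 between 0D-1 and 0D-2, from 0.384 to 0.400 between 2D-1 and each of the other 3 libraries, and 0.218 and 0.230 between 2D-2 and the 0D libraries. Results that rest on 2D-1 are therefore given with and without it. No member barcode was shared between libraries, and 13 to 16 barcodes were shared between pairs of libraries among all filtered cells.

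The members passed both bounds with room to spare in the middle and thinned out at the edges. Their median division score was 1.5 (range 0.509 to 3.48) and their median goblet score 0.820 (0.5 to 1.61). The 42 members within 0.1 above the division bound held 279 CPM (a gene's UMIs in the summed cells scaled to a common total) of Mki67, against 244 CPM in the 28 cells within 0.1 below it. The 133 members just above the goblet bound held 3429 CPM of Muc2 and 666 CPM of Clca1, against 3536 and 396 CPM in the 141 cells just below it. Both bounds thus cut through a continuum, and the class is a range of scores. In all, 938 cells reached 0.5 on the division and goblet sets. Of these, 97 were left out by the Paneth set, 46 by the stem set, 41 by the enterocyte set, 17 by the tuft set and 16 by the enteroendocrine set, with some left out by more than 1 set.

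**Figure D1:**
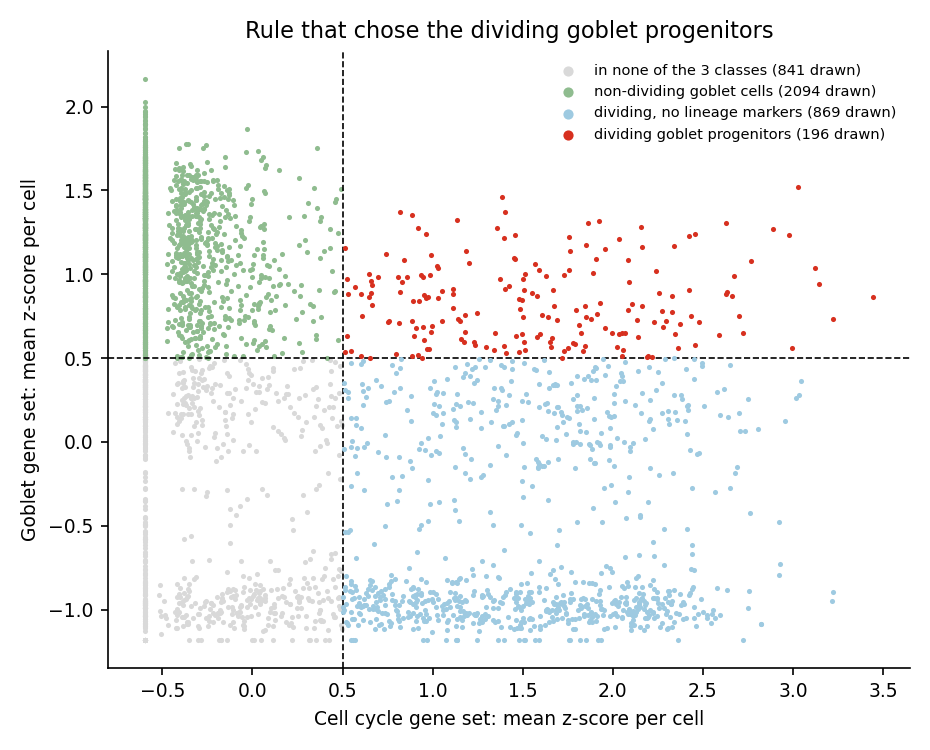
Each point is 1 of 4000 cells drawn at random from those under 0.5 on the stem, enterocyte, Paneth, enteroendocrine and tuft sets, placed by the mean z-score of the division genes (x axis) and of the goblet genes (y axis). Dashed lines mark the bound of 0.5, and the 196 members drawn (red) fill the upper right corner with no gap to the cells beside them.

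A pair of reference classes from the same libraries were used for comparison, cells that score goblet but not division (7316 non-dividing goblet cells) and cells that score division but no lineage set (2973 dividing cells without lineage markers). Members carried a deeper library than the former (median 14422 against 10449 UMIs) and a shallower one than the latter (17439). Doublets, droplets with more than 1 cell, can mix a dividing cell with a goblet cell. Of the members, 25.4% were among the 8% of cells with the highest Scrublet doublet score in their library, against 3.32% of the non-dividing goblet cells and 5.55% of the dividing cells without lineage markers. By library the members' share was 30.4%, 26.9%, 16.5% and 25.7%. No cell was left out for this in the main values, and leaving out those 8% before scoring left 165, 139, 146 and 130 members.

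The goblet programme in the members lay between the 2 reference classes at every product gene shown. These values are a description, since the rule selected on this axis, and are means ± SD over 4 libraries. Zg16, a lectin that binds bacterial cell walls, stood at 13223 ± 3271 CPM in members, 41832 ± 9733 in non-dividing goblet cells and 485 ± 155 in dividing cells without lineage markers. Muc2 itself stood at 5278 ± 562 CPM, 11314 ± 1890 and 729 ± 224. Fcgbp, a mucus protein that cross-links with Muc2, stood at 9292 ± 970 CPM, 16300 ± 1311 and 1490 ± 574. Spink4, a small goblet cell secretory peptide, and Agr2, a disulfide isomerase needed for mucin folding, followed the same order. Among the genes lowest in members relative to non-dividing goblet cells, Rgs2, a brake on G-protein signalling, led with a mean log2 ratio of -2.06, followed by the stress-response gene Nupr1 at -1.70. Clca1, a mucus-processing protease, was also among them (-1.16), as were the guanylin gene Guca2a (-1.11) and Muc2 (-1.09). Clca1 and Muc2 are genes of the rule, which holds both classes at or above the goblet bound. Their gaps can therefore not be set against those of Rgs2 and Nupr1.

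The transcription factors of the lineage differed less between members and non-dividing goblet cells than the products did. Atoh1 stood at 109 ± 6.67 CPM in members, 131 ± 11.8 in non-dividing goblet cells and 43.3 ± 14.2 in dividing cells without lineage markers. Spdef, which acts downstream of Atoh1, stood at 163 ± 42.6 CPM, 231 ± 41.8 and 49.4 ± 14. Dll1, the Notch ligand with which secretory precursors hold back their neighbours, was the exception in the order, at 71.5 ± 7.14 CPM in members, 63.5 ± 2.31 in non-dividing goblet cells and 34.3 ± 8.85 in dividing cells. The members' 4 values of Dll1 ranged from 61.3 to 76.9 CPM and overlapped those of non-dividing goblet cells. Klf4, a factor of terminal goblet differentiation, stood at 319 ± 16.5 CPM in members and 404 ± 17.2 in non-dividing goblet cells.

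Shares of cells with at least 1 UMI were compared after each cell was thinned to 3000 UMIs, which left 719 members. Atoh1 was seen in 27.4% of members (95% Clopper-Pearson interval 24.2% to 30.8%, counting error only), 31.4% of non-dividing goblet cells and 12.1% of dividing cells without lineage markers, against a background of 3.47% in tuft cells and 0.405% in non-dividing enterocytes. Spdef was seen in 40.1%, 48.1% and 14.2%, with 10.0% in tuft cells. Muc2 and Tff3 were seen in every thinned member, but also in 34.0% and 84.2% of tuft cells, so a UMI of either does not set members apart from that background. Clca1 had the lowest background of the goblet set and was seen in 92.8% of members, 7.34% of tuft cells and 4.46% of enterocytes. Neurog3, the factor that starts the enteroendocrine lineage, was seen in 0 of 719 thinned members. The 95% Clopper-Pearson interval allows a share of cells with a UMI of up to 0.512% at that depth. It sets no limit on cells that express Neurog3. Without thinning, 0.134% of the 749 members had a UMI of Neurog3. The p53 target and cell cycle brake Cdkn1a was seen in 27.7% of members, 45.2% of non-dividing goblet cells and 11.3% of dividing cells, with 28.6% in tuft cells and 27.2% in non-dividing enterocytes.

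**Figure D2:**
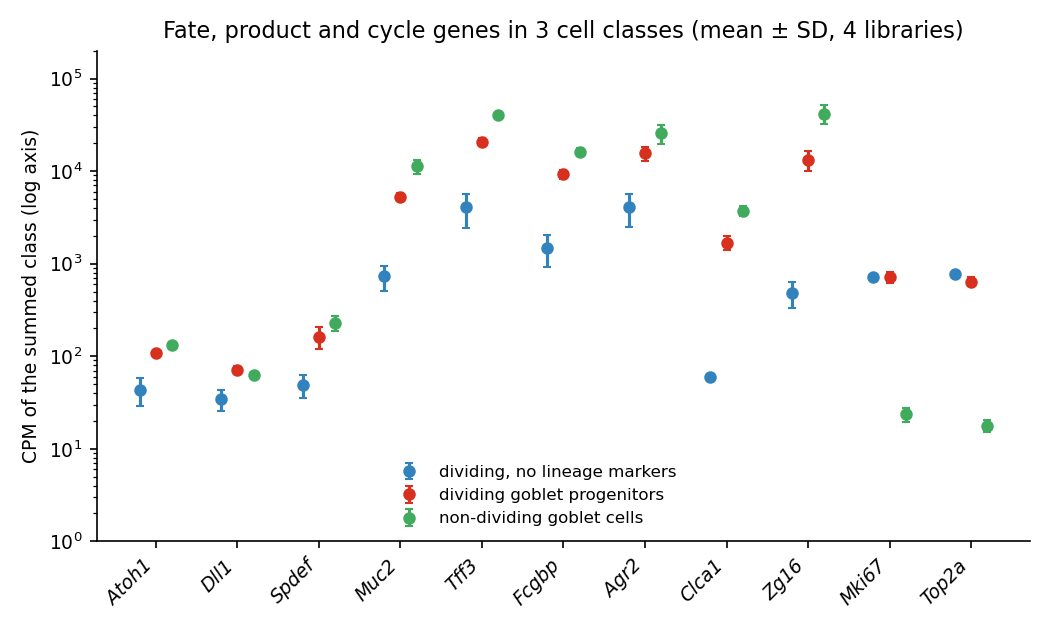
CPM of the summed cells on a log axis (y) for genes of fate (Atoh1, Dll1, Spdef), products (Muc2 to Zg16) and division (Mki67, Top2a) in 3 classes of cells. Points are means and bars SD over 4 libraries, and the members (red) sit between the other 2 classes at the product genes, close to the dividing cells at Mki67 and Top2a and close to the goblet cells at Atoh1 and Dll1.

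The markers of division and of goblet cells were both present, as the label says. Mki67, a nuclear protein of cycling cells, stood at 710.2 ± 95.5 CPM in members and 724 ± 39.0 in dividing cells without lineage markers, against 23.5 ± 4.10 in non-dividing goblet cells. Top2a, which untangles replicated DNA, stood at 642 ± 71.4 CPM, 773 ± 34.2 and 17.8 ± 2.75. Genes outside the rule that led the contrast with non-dividing goblet cells were the spindle and chromatin genes Nusap1 (log2 ratio 5.82), Hist1h1b (5.48), Tpx2 (5.45), Kif11 (5.32) and Prc1 (5.28). Against dividing cells without lineage markers the members led with Clca1 (4.79), Zg16 (4.78), Rgs2 (3.75) and the actin-severing protein Scin (3.46), and were lowest in the stem-zone gene Olfm4 (-2.13) and the adhesion molecule Jaml (-2.03). Next came Tm4sf20 (-1.57), Pnp2 (-1.56), Mpzl2 (-1.55), Cnn3 (-1.52), Car4 (-1.52), the absorptive-lineage gene Prap1 (-1.51) and the urea cycle genes Cps1 (-1.46) and Otc (-1.46). Defining markers of other tissues were near 0. The 8 immune markers summed to between 0.419 and 2.32 CPM per library with 3 of them at 0 in all 4, the 5 stromal and endothelial markers to between 0.3 and 1.26 CPM with 3 at 0, and both red cell genes were at 0.

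Whether sleep deprivation went with fewer dividing goblet progenitors was asked first. Members made up 3.03% of filtered cells in 0D-1 (95% interval 2.66% to 3.44%), 2.55% in 0D-2 (2.20% to 2.94%), 2.42% in 2D-1 (2.07% to 2.81%) and 2.09% in 2D-2 (1.79% to 2.43%). Both 0D libraries lay above both 2D libraries, with means of 2.79% ± 0.339 and 2.26% ± 0.233 (SD, n = 2 each). The difference of -0.537 percentage points had a two-sided exact permutation p of 0.333, the smallest that 2 against 2 libraries allow, so the design cannot pass 0.05. With the highest-scoring 8% of possible doublets left out, the difference shrank to -0.227 and the groups overlapped (exact p = 0.667), and with every cell thinned to 3000 UMIs it was -0.369 (exact p = 0.667).

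The other shares overlapped between the groups. Of goblet-scoring cells, 11.3%, 8.96%, 9.67% and 7.44% were dividing (difference -1.59 percentage points, exact permutation p = 0.667). Of dividing cells, 20.7%, 17.8%, 19.0% and 24% scored goblet (difference 2.24, exact permutation p = 0.667), and the highest value belonged to 2D-2, without which the difference turned to -0.226. Within the members, thinned to 3000 UMIs, the share whose S phase score exceeded their G2/M score was 52.7%, 38.1%, 38.8% and 47.2% (exact permutation p = 1). The spread of these shares was as wide between libraries of 1 group as between the groups.

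The main question was which genes changed in the members between 0D and 2D. The genes that passed were 10 higher genes known from Paneth cells, mostly defensins, and among the lower ones 3 replication-dependent histones and the MHC class II gene H2-Aa. The remaining one, Olfm4, is a gene of the rule and is given as description. Summed UMIs of 2 against 2 libraries were compared with edgeR's quasi-likelihood test over 9941 genes, and 15 passed an adjusted p under 0.05 (0.151% of the genes tested), 10 higher (0.101%) and 5 lower (0.0503%) in 2D. At an unadjusted p under 0.05 there were 573 genes (5.76%), 309 higher (3.11%) and 264 lower (2.66%). Left-out libraries moved the count widely, to 9 when 0D-1 was left out, 99 when 2D-1 was, 1253 when 2D-2 was and 0 when 0D-2 was (where 236 had an unadjusted p under 0.05). All 15 genes were called again without either 2D library, 2 of them without 0D-1 and 0 without 0D-2. Each of these 4 fits leaves 1 group with a single library, which is assumed to vary like the libraries of the other group.

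All 10 genes that rose are known from Paneth cells, the antimicrobial cells of the crypt base. Of these, 9 lie in the α-defensin cluster of chromosome 8 between positions 21025545 and 21703645 (GRCm38, the build mm10), and Mptx2, a pentraxin of Paneth cells, lies on chromosome 1 from 173274382 to 173277777. AY761184, the gene with the smallest p among them, had 125 and 157 CPM in 0D-1 and 0D-2 and 399 and 410.4 CPM in 2D-1 and 2D-2, a log2 change of 1.48 (SE 0.18, edgeR adjusted p = 0.0104). The 2D libraries were alike and did not overlap with 0D. Defa17 had 89.9, 149, 321 and 378 CPM (log2 change 1.52, SE 0.23, edgeR adjusted p = 0.0130). Defa30, the most abundant of the 10, had 278, 381, 826 and 753 CPM (log2 change 1.22, SE 0.20, edgeR adjusted p = 0.0284). Mptx2 had 27.1, 42.4, 100.4 and 70.8 CPM (log2 change 1.26, SE 0.21, edgeR adjusted p = 0.0303). The other 6 were Gm14851, Defa21, Defa22, Defa3, Defa29 and Gm7861, with log2 changes from 1.24 to 1.54 and edgeR adjusted p from 0.0104 to 0.0303. In none did the groups overlap, which selection by the test favours. Defensin genes are near-identical copies, so how reads were split among them is uncertain and the 10 are not independent.

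The same transcripts were also higher in 2D in most cells that are not goblet progenitors, often by less. The ratio of the 2D to the 0D mean CPM of AY761184 was 2.86 in members, 2.55 in non-dividing goblet cells, 2.42 in dividing cells without lineage markers, 2.32 in tuft cells and 2.19 in non-dividing enterocytes. In Paneth cells themselves, picked by the same kind of score, it was 1.13, at 60583 to 74092 CPM per library. Over all filtered cells together the level rose from 8187 and 8714 CPM in 0D to 15985 and 22158 CPM in 2D. For Defa17 the ratio was 2.93 in members, 1.84 in non-dividing goblet cells and 2.33 in dividing cells without lineage markers. All 10 listed Paneth markers had a higher log2 change in members than in non-dividing goblet cells (median difference of log2 changes 0.475, 8 at an unadjusted p under 0.05 and 2 called). Of all 11784 genes in that test, 51.5% lay above 0, 2.96% were higher at an unadjusted p under 0.05 and 0.017% were called higher. Against dividing cells without lineage markers, 7 of the 10 markers lay above 0 and 3 below (median difference 0.147, with 44.2% of all genes above 0). None was called there, and at an unadjusted p under 0.05 by edgeR 1 was higher and 2 were lower. For Defa30 the ratio was 2.40 in members, 1.87 in tuft cells, 0.978 in Paneth cells and 1.95 over all cells. The members' level of AY761184 moved with the level over all cells of each library, and the part that RNA free in the suspension had in the rise was not tested. Of the 10 Paneth markers listed, 9 lay above 0 with a median log2 change of 1.15, their summed level was 3797, 4266, 7779 and 7631 CPM in the members, and none was at 0. In the change within members, 49.1% of all genes tested lay above 0. The 10 markers include Lyz1, Defa24 and Ang4, which the rule bounds from above in the members and in both reference classes. Counts and sums over the 10 markers are therefore description. With the highest-scoring 8% of possible doublets left out, 1 of the 10 called genes that rose was called again, AY761184. The log2 changes of these 10 called genes were then from 0.87 to 1.38. With the division and goblet bounds raised to 0.75 none of the 10 was called by edgeR, with log2 changes from 0.92 to 1.64.

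**Figure D3:**
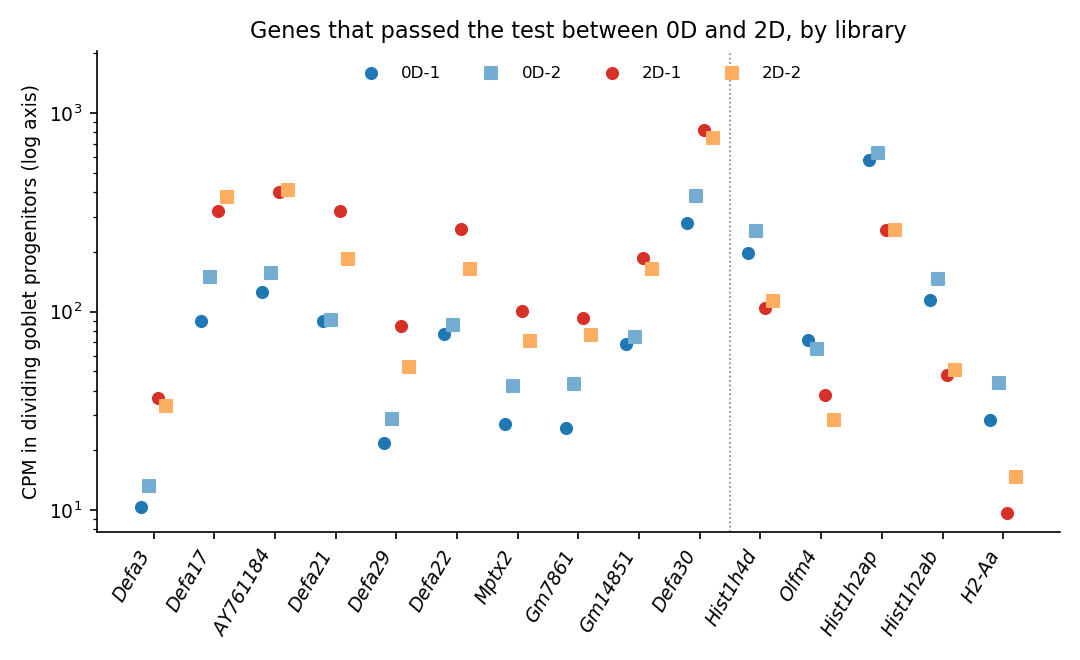
CPM in the summed members of each library (y, log axis) for the 15 genes that passed the test, the 10 that rose left of the dotted line and the 5 that fell right of it. Circles are replicate 1 and squares replicate 2, and at each gene both 2D points (red and orange) lie on the same side of both 0D points (blue).

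Replication-dependent histones package newly made DNA and are transcribed mainly in S phase. Of 67 listed, 49 passed the filter on low counts, and 48 of the 49 were lower in 2D (median log2 change -0.60, against -0.01 over all genes tested, of which 49.1% lay above 0). The test called 3 of them lower and 0 higher, against 0.0503% lower and 0.101% higher over all genes tested. Hist1h2ab, which encodes an H2A histone (chromosome 13, 23751126 to 23751598), had 114, 146, 47.9 and 50.7 CPM (log2 change -1.43, SE 0.19, edgeR adjusted p = 0.0104). Hist1h2ap, another H2A gene (chromosome 13, 21833026 to 21833507), had 583, 629.9, 257 and 257 CPM (log2 change -1.28, SE 0.18, edgeR adjusted p = 0.0130). Hist1h4d, an H4 gene (chromosome 13, 23581598 to 23582735), had 197, 255, 104 and 114 CPM (log2 change -1.09, SE 0.19, edgeR adjusted p = 0.0325). In each of the 3 the 2D libraries lay close together and below either 0D library. Hist1h2bb, an H2B gene, had 32.0, 39.0, 15.5 and 15.9 CPM and just missed the threshold (edgeR adjusted p = 0.0549). Hist1h1b, a linker histone, had 597, 681, 283 and 516 CPM and did not pass (edgeR adjusted p = 0.722). Without 2D-1 the histone median was -0.69 and without 2D-2 it was -0.63. All 3 called histones were called again with at most 10% mitochondrial UMIs. With the highest-scoring 8% of possible doublets left out 2 of the 3 were, as with at least 1000 genes per cell. With bounds of 0.75, or with cells thinned to 3000 UMIs, 1 of the 3 was.

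Promoters of 2 of these genes are printed because these genes were lower together and each matched 1 RefSeq gene. The sequences are RefSeq's, GRCm38.p6, from 250 bases before to 50 after the start, plus strand, with CCAAT or its reverse complement ATTGG and TATAAA in capitals:
Hist1h2ab (H2ac4), chr13:23750838-23751137: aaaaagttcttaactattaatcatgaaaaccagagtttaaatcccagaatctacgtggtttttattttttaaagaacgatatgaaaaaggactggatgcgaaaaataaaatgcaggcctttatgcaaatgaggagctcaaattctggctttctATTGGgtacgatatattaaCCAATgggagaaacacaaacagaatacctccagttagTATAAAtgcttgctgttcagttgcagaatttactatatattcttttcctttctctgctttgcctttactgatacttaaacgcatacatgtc
Hist1h4d (H4c4), chr13:23581318-23581617: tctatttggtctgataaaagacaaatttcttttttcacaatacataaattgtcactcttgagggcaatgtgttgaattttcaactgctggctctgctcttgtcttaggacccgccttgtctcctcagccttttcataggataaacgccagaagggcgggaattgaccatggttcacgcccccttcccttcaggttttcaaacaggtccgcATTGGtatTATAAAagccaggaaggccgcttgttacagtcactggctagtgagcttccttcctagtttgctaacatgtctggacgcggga
Both hold a TATAAA on the plus strand, found on either strand in 13.6% of 32544 promoters of that length, and at least 1 CCAAT or ATTGG, found in 37.4%. The match describes these letters only. Hist1h2ap matched 2 RefSeq genes by synonym, so no promoter is shown for it, and neither of its 2 candidate promoters holds a TATAAA.

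The lower histone level was seen in members of either phase score. Summed over the 67 genes, members with the higher S score held 3471, 4653, 2187 and 2937 CPM, and members with a G2/M score at least as high held 3715, 3948, 2404 and 2058 CPM. The log2 ratio of the 2D to the 0D mean was -0.66 in the S-scoring and -0.78 in the G2/M-scoring members. Both 2D libraries lay below both 0D libraries in either part. The same sum was 4515, 5106, 2808 and 3147 CPM in dividing cells without lineage markers and 3575, 3535, 1858 and 2230 CPM in dividing enterocyte progenitors, so other cycling cells were lower in 2D as well. These transcripts mostly lack a poly(A) tail, and a 3′ library counts only those that are primed.

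**Figure D4:**
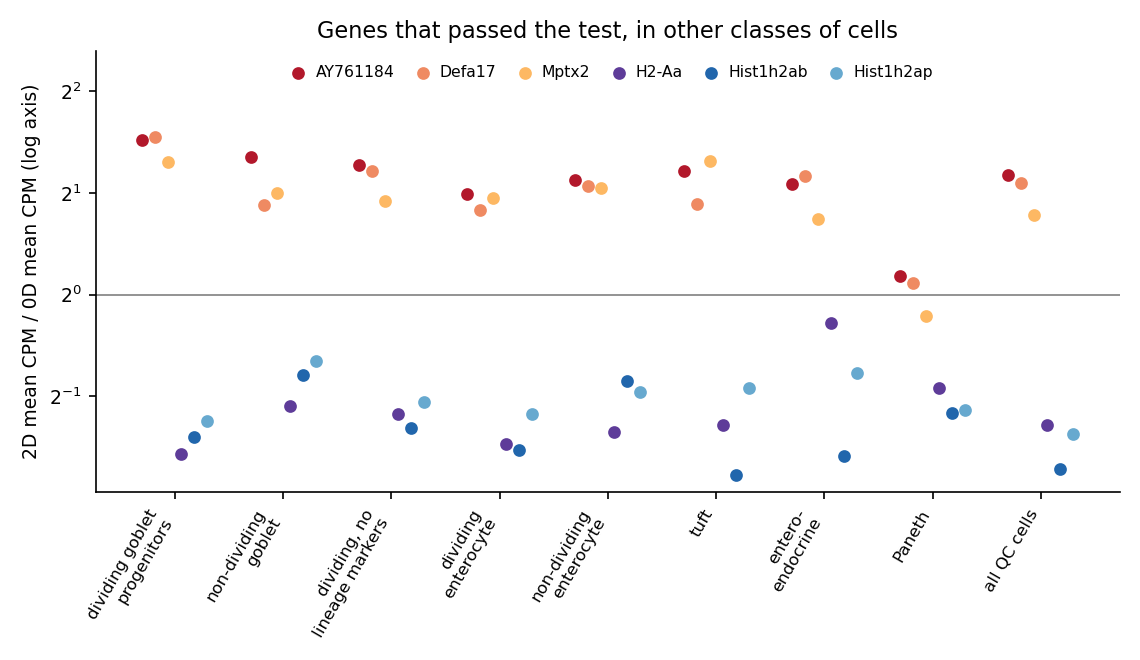
Ratio of the mean CPM of 2D-1 and 2D-2 to that of 0D-1 and 0D-2 (y, log axis) in 8 classes of cells and in all filtered cells, for 6 genes that passed the test in the members. AY761184, Defa17 and Mptx2 lie above 1 in each class but Paneth cells, where they lie near 1, while H2-Aa and both histone genes lie below 1 in each class.

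Other genes of division lay mostly below 0, and none passed. The share above 0 was 49.1% over all genes tested. Of 36 S phase genes, 30 lay below 0 (median log2 change -0.23), but without 2D-1 the median was -0.02 and 16 of the 36 lay above 0. Of 40 genes of G2 and mitosis, 35 lay below 0 (median -0.13), but against the 0D mean the list's median was 0.04 in 2D-1 and -0.22 in 2D-2, and without 2D-2 13 of the 40 lay above 0 (median -0.07). Their summed level overlapped between the groups, at 5423, 6228, 5810 and 5220 CPM. Aurkb, the kinase of the chromosomal passenger complex, had 56.7, 71.5, 44.5 and 51.6 CPM, and Cdk1, the mitotic kinase, had 129, 178, 134 and 115 CPM. Cdkn1c, a CDK inhibitor, had 5.67, 9.31, 2.1 and 3.35 CPM (edgeR adjusted p = 0.541) on 5 and 8 UMIs in the 2D libraries. Cdkn2d, another, had 45.9, 53.8, 39.1 and 31.0 CPM (edgeR adjusted p = 0.617). Cdkn1a was level at 133, 116, 106 and 115 CPM.

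MHC class II genes, which crypt epithelium uses to present peptides to T cells, were lower in 2D. All 6 tested of 7 listed lay below 0 (median log2 change -0.88), and 1 passed. Over all genes tested, 49.1% lay above 0 and 0.0503% were called lower. H2-Aa, the α chain of I-A, had 28.3, 43.9, 9.66 and 14.7 CPM on 110, 146, 23 and 35 UMIs (log2 change -1.59, SE 0.29, edgeR adjusted p = 0.0498). H2-Aa was called again with at most 10% mitochondrial UMIs and with no filter on low counts. It was not called with at least 1000 genes per cell or without the highest-scoring 8% of possible doublets. Nor was it called with bounds of 0.75 or with total UMIs in place of TMM, though it stayed lower in 2D throughout. Cd74, the invariant chain, had 290.4, 370.3, 172 and 178 CPM (edgeR adjusted p = 0.0757), and H2-Eb1 had 39.4, 53.2, 18.9 and 23.9 CPM (edgeR adjusted p = 0.0901). Neither of these passed. The groups did not overlap in either, but the share of all tested genes with such a separation was not counted. The ratio of the 2D to the 0D mean of H2-Aa was 0.337 in members, 0.468 in non-dividing goblet cells, 0.444 in dividing cells without lineage markers and 0.413 over all filtered cells. Immune genes were nearly absent from the members: Ptprc and Cd3e were at 0 UMIs in all 4 libraries.

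Olfm4, a secreted glycoprotein of the stem cell zone, is a gene of the stem set, which the rule bounds from above in every member, so its level in the members is given as description and its call is not read as a finding. It had 71.9, 64.6, 37.8 and 28.5 CPM, and in 2D-1 32 of its 90 UMIs came from 1 cell. Over all filtered cells, where the rule does not act, the ratio of the 2D to the 0D mean was 0.595. This ratio was 0.628 in dividing cells without lineage markers, 1.20 in dividing enterocyte progenitors and 1.10 in non-dividing enterocytes. In non-dividing goblet, tuft, Paneth and enteroendocrine cells it lay from 0.580 to 0.849. Of the 17 tested stem and Wnt target genes, 10 lay below 0 (median -0.03), and no other was called.

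The rule holds every member of either group at or above the goblet bound on Muc2, Tff3 and Clca1. A change in the level of the goblet programme could therefore not be read freely here, though these genes are not in the list of products. Of 27 tested genes for secretory products and mucin-making enzymes, 12 lay above 0 and 15 below (median log2 change -0.02), and none passed by edgeR (2 had an unadjusted p under 0.05). Muc2 had 5072, 4854, 6106 and 5080 CPM, and Zg16 had 14942, 14352, 8348 and 15250 CPM, with 2D-1 apart in both. Fut2, a fucosyltransferase that caps glycans, had 12.9, 14.7, 75.2 and 14.7 CPM, so its log2 change of 1.63 (edgeR adjusted p = 0.418) came from 2D-1. The 23 fate regulators tested split 11 above and 12 below 0 (median -0.00), with none called and 0 at an unadjusted p under 0.05. Atoh1 was level at 99.5, 115, 109 and 111 CPM, and Dll1 at 61.3, 76.9, 76.0 and 71.7 CPM.

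Of 28 genes for protein folding in the endoplasmic reticulum, where mucins are assembled, 21 lay above 0 (median 0.08), and none passed. For comparison, 49.1% of all genes tested lay above 0. The ubiquitin ligase of that compartment, Syvn1, had 24.7, 23.4, 47.0 and 37.3 CPM (edgeR adjusted p = 0.355). The chaperone Hyou1 had 51.0, 63.7, 89.4 and 96.4 CPM (edgeR adjusted p = 0.389), and the stress sensor Atf6 had 31.4, 30.6, 49.1 and 51.6 CPM (edgeR adjusted p = 0.411). In these 3 both 2D libraries lay above both 0D libraries, but they were named for a small p within the list, which favours this. The share of all tested genes with such a separation was not counted. With the highest-scoring 8% of possible doublets left out, the median of the list turned to -0.05, and without 2D-2 it was -0.00 with 14 of 28 above 0.

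Interferon-response genes were high in 1 library, 2D-1. All 28 tested lay above 0 with a median log2 change of 1.01, 24 had an unadjusted p under 0.05 and none passed by edgeR. Among all genes tested 49.1% lay above 0 and 3.11% were higher at an unadjusted p under 0.05. Against the 0D mean the list's median was 1.67 in 2D-1 and 0.07 in 2D-2. Ly6a, a surface antigen induced by interferon, had 30.4, 39.0, 495 and 28.1 CPM. Oas2, a sensor of double-stranded RNA, had 13.1, 11.7, 67.6 and 20.5 CPM (edgeR adjusted p = 0.146). Without 2D-1 the median was 0.11 and 19 of 28 lay above 0. Summed over 30 genes, 2D-1 was highest in each of 8 other groupings of cells as well, such as tuft cells (1398, 1676, 5031 and 1444 CPM).

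**Figure D5:**
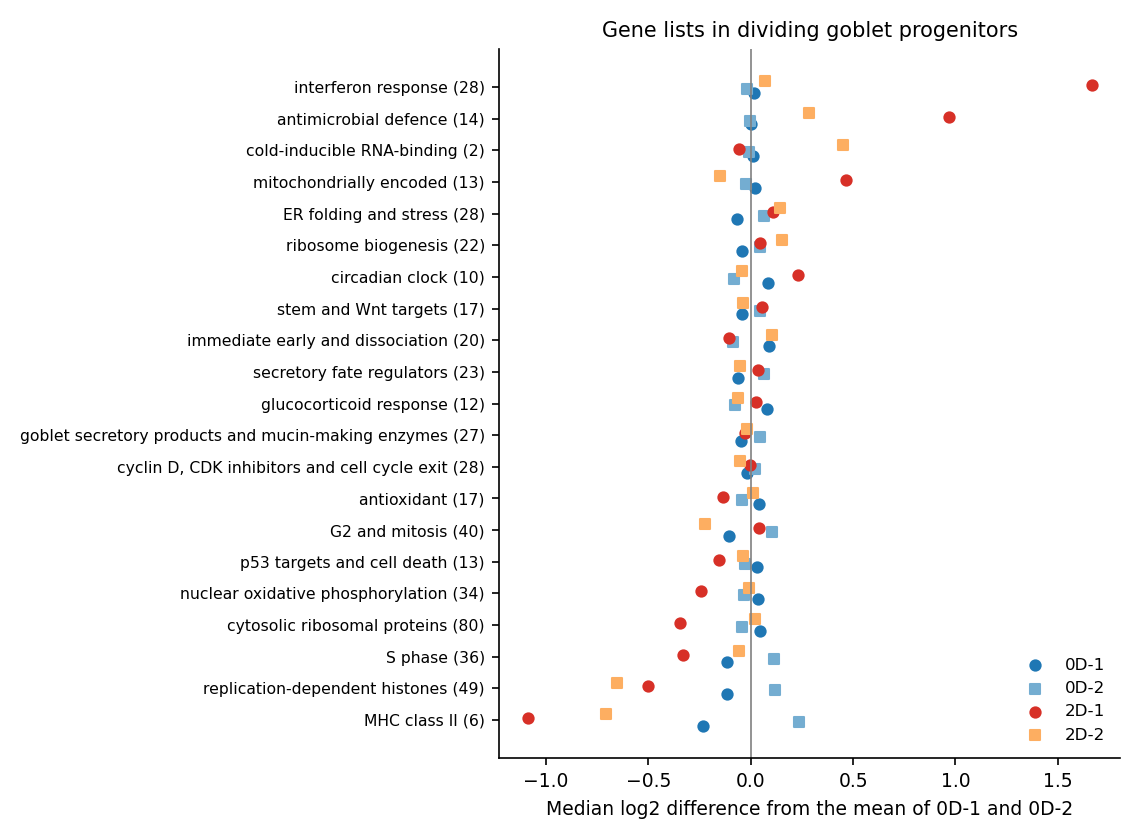
Median log2 difference of each gene list (rows, number of tested genes in brackets) from the mean of 0D-1 and 0D-2 in the members, 1 point per library. Both 2D libraries lie below both 0D libraries for replication-dependent histones and MHC class II, while interferon response, mitochondrially encoded and ribosomal protein lists lie farthest from 0 in 2D-1.

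To ask whether the change differed from that of other goblet cells, an interaction of class and group was fitted, blocking on library. Of 11784 genes, 3 passed (0.0255%), 2 with a higher (0.017%) and 1 with a lower (0.00849%) change in members. At an unadjusted p under 0.05 there were 672 (5.70%; 2.96% higher and 2.74% lower), and 51.5% of all differences lay above 0. Defa17 rose more in members than in non-dividing goblet cells, where it had 207, 235, 411 and 400.2 CPM (difference of log2 changes 0.78, SE 0.13, edgeR adjusted p = 0.00606). Itln1, an intelectin of Paneth and goblet cells, had 794, 632, 937 and 1238 CPM in members and 1196, 1432, 958 and 1621 in non-dividing goblet cells (difference 0.75, SE 0.15, edgeR adjusted p = 0.0229). Hist1h2ae, an H2A gene, had 318, 384, 245 and 266 CPM in members and 10.4, 12, 16.5 and 13.5 in non-dividing goblet cells (difference -0.79, SE 0.14, edgeR adjusted p = 0.00606). So Hist1h2ae was lower in 2D in the dividing class and higher in the non-dividing class. These counts moved to 18 when 2D-1 was left out, 197 when 2D-2 was, 5 when 0D-1 was and 1 when 0D-2 was.

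The same term against dividing cells without lineage markers called 3 of 11309 genes (0.0265%), 1 higher (0.00884%) and 2 lower (0.0177%) in members, with 591 (5.23%; 1.31% higher and 3.92% lower) at an unadjusted p under 0.05. Cck, an enteroendocrine hormone, had 4.90, 4.81, 12.2 and 26 CPM in members and 11.1, 21.6, 6.88 and 8.16 in the dividing cells (difference 2.95, SE 0.36, edgeR adjusted p = 7.97e-05), but 41 of its 62 UMIs in 2D-2 came from 1 member. Nupr1 was level in members at 152, 164, 163 and 180.2 CPM and higher in 2D in the dividing cells, at 15.7, 16.1, 30.0 and 43.4 CPM (difference -1.11, SE 0.16, edgeR adjusted p = 0.00144). Clps, a pancreatic-type colipase, had 54.6, 38.4, 37.4 and 56.6 CPM in members and 11.3, 11.7, 16.0 and 34.8 in the dividing cells (difference -1.11, SE 0.21, edgeR adjusted p = 0.0399). In Paneth cells Clps stood at 4346, 3821, 3315 and 4769 CPM. All 27 goblet product genes lay below 0 in this term (median -0.50, against -0.03 over all genes and 44.2% above 0), 17 of them at an unadjusted p under 0.05 and none called. The list's median in the dividing cells was 0.08 in 2D-1 and 0.83 in 2D-2 above the 0D mean, while in members it was -0.03 and -0.02. The goblet score bounds that class from above. Without 2D-2 the median of the term was -0.35. The number of calls was 240 when 2D-1 was left out, 760 when 2D-2 was, 1 when 0D-1 was and 8 when 0D-2 was.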

How the data were processed

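Single-cell RNA of crypt epithelium was measured in 4 libraries, 2 per group. Per the submitters' processing notes reads were aligned to mm10 with Cell Ranger 2.1.1, while the file headers name version 7.0.0, and which made the matrices was not resolved. The authors deposited raw UMI counts for 32285 genes per barcode. From these counts, cells with 500 or more genes and no more than 20% mitochondrial UMIs were retained, scored and classed with scanpy 1.11.5 on Python 3.11.15. Doublets were scored with Scrublet and kept, with an alternative without the highest 8%.

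Members' counts were summed per library. Genes passing edgeR's filterByExpr were compared with its quasi-likelihood test (edgeR 4.0.16, limma 3.58.1, R 4.3.3; TMM scaling, Benjamini-Hochberg adjustment over all tested genes, threshold 0.05). The difference of change between classes was an interaction term with library as a block. DESeq2 1.42.0 was an alternative. SE is the absolute log2 change divided by the root of F. Shares were compared by two-sided exact permutation over libraries, and intervals cover counting error only. On counts simulated for the members, 73% of genes changed 2-fold and 100% of those changed 4-fold were recovered. Changed genes were drawn there only from those with more counts, all genes shared the same dispersion, and no library stood apart as 2D-1 did. These shares therefore do not give the recovery in the real counts, least of all for genes with few UMIs.

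The replicate number was not used as a block: libraries numbered alike deviated with a correlation of -0.12 over 2369 genes. Fewer cells and less RNA per cell cannot be told apart in these sums. The named genes are those that passed, the leading genes between classes, and genes of the lists, some of them picked for a small p. Members and lists were chosen with earlier results of these data known. Alternatives changed the cell filters, bounds, depth, scaling, gene filter, test, block and the libraries used.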

Additional observations from a re-analysis of the deposited data

Results flagged for a closer look

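The change from 0D to 2D differed between the members and another class, by a test of the difference itself, at 6 genes. Against non-dividing goblet cells the difference of log2 changes was 0.78 at Defa17, 0.75 at Itln1 and -0.79 at Hist1h2ae (edgeR adjusted p = 0.00606, 0.0229 and 0.00606). Against dividing cells without lineage markers it was 2.95 at Cck, -1.11 at Nupr1 and -1.11 at Clps (edgeR adjusted p = 7.97e-05, 0.00144 and 0.0399). At Cck, 66.1% of the UMIs of 2D-2 came from 1 member. At Nupr1 and Clps the members' libraries overlapped between the groups, and the dividing cells without lineage markers were higher in 2D. Nupr1 stood at 537 ± 38.1 CPM in non-dividing goblet cells and 26.3 ± 13.2 in these dividing cells. All 27 goblet product genes lay below 0 in this term, and the goblet score bounds the dividing cells from above and the members from below. Clps stood at 3315 to 4769 CPM in Paneth cells. With the highest-scoring 8% of possible doublets left out, no gene of this term was called.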

How the results depend on the processing

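The count of 15 genes called in the members became 5 with at least 1000 genes per cell, 4 without the highest-scoring 8% of possible doublets, 1 with bounds of 0.75, 9 with total UMIs in place of TMM (7 higher, 2 lower, against 10 and 5) and 106 with no filter on low counts. Leaving out 1 library gave 0 to 1253. In the 10 alternatives that keep all libraries, every one of the 15 that was tested kept its direction. With the replicate number as a block it was 87, and with the crossed pairing, added after the data were seen, 79; the numbers mark no stated pairing. Against non-dividing goblet cells the count of 3 became 12 with at most 10% mitochondrial UMIs, 8 with at least 1000 genes, 0 with bounds of 0.75 (516 at an unadjusted p under 0.05, edgeR), 5 with total UMIs, 8 with no filter, and 1 to 197 without 1 library. Against dividing cells without lineage markers the count of 3 became 6 with at most 10% mitochondrial UMIs, 0 without possible doublets (805 at an unadjusted p under 0.05, edgeR), 26 with no filter, and 1 to 760 without 1 library. DESeq2 called 18, 3 and 3. The cause was not tested.

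The share of dividing cells that score goblet turned from a difference of 2.24 to -1.13 with at most 10% mitochondrial UMIs, and ranged from -0.226 to 4.70 without 1 library. The S-scoring share turned from -2.41 to 0.541 unthinned and 0.108 without possible doublets, and ranged from -9.73 to 4.91 without 1 library. Without 1 library the log2 change of Hspa1a ranged from -0.45 to 3.38 and that of Ly6a from -0.26 to 3.73. With 2 libraries per group, small differences were not detectable.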

Other observations

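Other gene groups in the members gave values with no call, while 49.1% of all genes tested lay above 0. Of 80 cytosolic ribosomal protein genes, 78 lay below 0 (median log2 change -0.17), but without 2D-1 60 lay above 0 (median 0.06). Of 34 nuclear genes of oxidative phosphorylation, 33 lay below 0 (median -0.18), and without 2D-1 the median was 0.03. The 10 tested genes of the circadian clock had a median of -0.10 and the 12 of the glucocorticoid response -0.16. Against the 0D mean, the clock list's median was 0.23 in 2D-1 and -0.04 in 2D-2. The glucocorticoid list's was 0.03 in 2D-1 and -0.06 in 2D-2, so neither list showed a drop shared by both libraries of clear size. Rbm3, a cold-inducible RNA-binding protein, had 233, 231, 285 and 473 CPM in the libraries of 0D and then 2D (edgeR adjusted p = 0.655). The heat shock gene Hspa1a had 9.28, 4.21, 5.46 and 70.4 CPM, high in 2D-2 alone, and its relative Hsph1 had 56.4, 47.8, 91.5 and 153 CPM (edgeR adjusted p = 0.0901).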
